A study of Mus musculus with 4 samples.

Results

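The complement genes of this melanoma series were C1qa, C1qb, C1qc, C3, C3ar1, C5ar1, Cfb and Cfp. They were picked by gene symbol, and all 8 were found among the 55367 gene symbols counted in each library. The series holds 4 RNA-seq libraries of cells from B16-F10 tumors, a mouse melanoma line grown under the skin of mice. According to the labels, dissociated tumors were sorted for cells with both CD45.2, which marks cells of blood origin, and CD8, which marks cytotoxic T cells. Each group had 2 libraries, titled WT and KO. The series design names WT mice and Satb1 F/F mice carrying either ThPOK-cre, which is active in the CD4 lineage, or E8I-cre, which is active in the CD8 lineage, and the titles do not say which Cre the KO mice carried. The labels give no age or sex, and nothing says whether the 2 libraries of a group came from separate mice, so the p-values below measure the spread between libraries, which may be technical.

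Complement is a set of proteins that tag particles and cells for uptake and call in leukocytes. C1q, built from the products of C1qa, C1qb and C1qc, starts the classical pathway when it binds antibody or dying cells. The pathways meet at C3, and the factors encoded by Cfb and Cfp (factor B and properdin) build and steady the alternative pathway enzyme that cuts C3. The fragments C3a and C5a are sensed by the receptors encoded by C3ar1 and C5ar1. Most circulating complement comes from the liver, but C1q is an exception that is made mainly by macrophages and dendritic cells, and tumor macrophages are known as a strong source of it.

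Several properties of the libraries touch every result below. Counts on genes ranged from 4017875 to 5382915 per library. Satb1 had 7 and 5 counts in WT 1 and WT 2 but 131 and 55 in KO 1 and KO 2, opposite to the label, so the groups are called the WT-labeled and KO-labeled libraries. The list of 10 T cell markers took 0.00672% to 0.0106% of gene counts in the WT-labeled libraries and 0.123% to 0.244% in the KO-labeled ones. The list of 13 macrophage markers took 1.76% to 2.34% over the 4 libraries. None of these macrophage markers was at 0 in any library, so the markers go against the label of a CD8+ T cell sort and match the name of myeloid cells used for the genes here. Xist had 435 and 216 counts in the WT-labeled libraries and 0 and 3 in the KO-labeled ones, while the Y-linked gene Ddx3y had 0 and 0 against 188 and 81, so sex and group cannot be told apart. Cfp is X-linked, and whether sex affects its level was not tested. Markers of other cells moved with the group too. The 7 melanoma markers had 873 and 1083 counts in WT 1 and WT 2 and 10380 and 6746 in KO 1 and KO 2. The 8 dendritic cell markers had 218 and 393 against 2263 and 1866. In the KO-labeled libraries most of these were on Ccr7 (20, 36, 1363 and 1574 counts), a gene of migrating dendritic cells and of T cells, and in the WT-labeled ones on Batf3 (170, 262, 150 and 75 counts), which was lower in both KO-labeled libraries. The 6 fibroblast markers had 31 and 13 against 6651 and 981. The part of these cells in the results below was not tested.

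The promoter sequences of the C1q genes and C3 are shown because these genes ran apart in the comparisons that follow. RefSeq windows of GRCm38.p6 were held for 6 of the 8 genes, with none for C1qa or Cfb. The 250 bases before each RefSeq start were searched on both strands for 8 short motifs. Capitals mark the matches. All of the stretches lie on the minus strand and are written 5′ to 3′ along the gene. The C1qb stretch is chr4:136886201-136886300, the C1qc stretch is chr4:136893066-136893164 and the C3 stretch is chr17:57228137-57228236. Counted from the RefSeq start, the C1qb and C3 stretches run from -100 to -1. The C1qc stretch runs from -250 to -152, because the rest of its window lies inside the GENCODE gene.
C1qb: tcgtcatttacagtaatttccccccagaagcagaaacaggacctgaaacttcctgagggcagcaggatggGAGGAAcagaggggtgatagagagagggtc
C1qc: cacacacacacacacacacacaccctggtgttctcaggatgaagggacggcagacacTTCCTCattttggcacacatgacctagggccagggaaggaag
C3: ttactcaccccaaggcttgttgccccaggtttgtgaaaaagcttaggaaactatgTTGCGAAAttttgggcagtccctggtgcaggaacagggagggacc

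In both C1q windows the match was the PU.1 or ETS core GAGGAA. It lay on the gene's strand at -30 in C1qb and on the other strand at -193 in C1qc. That motif occurred in 23.3% of the 32851 RefSeq windows of the same length. In C3 the match was the C/EBP motif TTGCNNAA, which occurred in 9.56% of windows. The C3ar1 window held the AP-1 motif TGANTCA, found in 6.75% of windows, and a TATA box (TATAAA, 12.4%). The C5ar1 window held CCAAT (33.8%) and the interferon regulatory factor motif GAAANNGAA (7.13%). Both matches lie within the GENCODE span of C5ar1 (chr7:16246743-16259540), which overlaps this window (chr7:16259339-16259588). No match to the MAF core TGCTGAC (3.81%) or to the NF-kappaB core GGANTTTCC (1.07%) lay in any of the 6 windows, and the Cfp window held no match at all. A match is a description of letters and not a binding site, and a missing match says only that those letters were absent from the window.

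The first question was how much complement RNA these cells carried. The 8 genes together took 1.62% and 2.07% of gene counts in WT 1 and WT 2 and 0.506% and 1.27% in KO 1 and KO 2. The exact Clopper-Pearson 95% intervals were narrow against these differences, from 1.60% to 1.63% in WT 1 and from 1.26% to 1.28% in KO 2. Such intervals and limits reflect the error of counting alone, because copies made by PCR were not marked. The C1q chains made up most of this, with 1.29%, 1.77%, 0.371% and 0.955% of gene counts. By raw counts C1qb stood at rank 17, 9, 36 and 16 among all genes in WT 1, WT 2, KO 1 and KO 2.

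Levels of different genes were compared per length, as CPM (counts scaled to a common library total, here unnormalized) per kb of the longest annotated transcript. C1qb was highest in all 4 libraries, with a mean of 5088 and a range from 1925 to 8055 CPM per kb. C1qa and C1qc followed with means of 2432 and 2413, ranges of 692 to 4153 and 744 to 3839, and an order that was not the same in every library. Cfp was at rank 4 in every library, with a mean of 530 and a range from 224 to 701. C5ar1 and C3ar1 had means of 241 and 180, exchanged places between libraries and had overlapping ranges. C3 had a mean of 83.9 and a range from 64.6 to 119, and was at rank 7 except in KO 1, where it was at rank 5. Between neighbors in this order, the ranges over the 4 libraries were apart only for C1qc against Cfp and for C3 against Cfb, and the ranges of the other neighbors overlapped. With the median transcript length of 0.608 kb in place of 5.14 kb, the mean of C3 became 708 and its rank moved to 5 in 3 libraries and 2 in KO 1. With the median transcript length of Cfp, 1.02 kb, the mean of Cfp became 852 and its rank in KO 1 moved to 5.

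Cfb was at the floor of detection. Its counts over the 4 libraries were 2, 3, 2 and 3, at or under the 3 counts taken as the limit, and gives no fold. Cfb (ENSMUSG00000090231.10, chr17:34856374-34862518, minus strand) shares 79.5% of its exonic bases on the same strand with Gm20547 in GENCODE M21, and Gm20547 had 0 counts in every library. Reads on shared bases can be set aside as ambiguous in this kind of counting, and how much of the low Cfb count this accounts for was not tested.

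**Figure D1:**
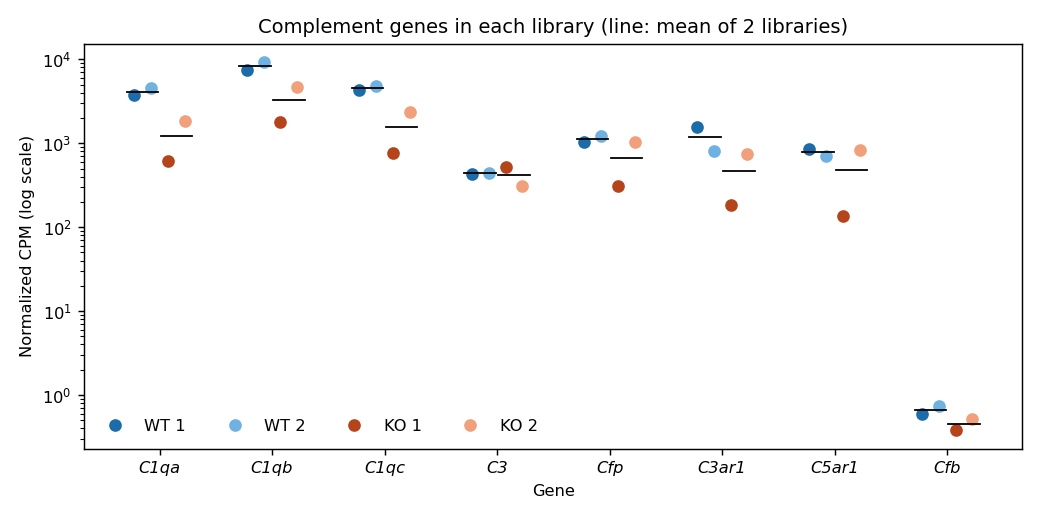
Normalized CPM on a log scale (y axis) of the 8 complement genes (x axis), with 1 point per library and a black line at the mean of each group of 2 libraries. The C1q genes and C3ar1 were lower in both KO-labeled libraries than in both WT-labeled ones, KO 1 was lowest for the 7 genes tested except C3, and Cfb lay below 1 CPM throughout, too low to order the libraries.

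Each C1q gene was lower in both KO-labeled libraries, by 2.59-fold to 3.36-fold on average, and no difference passed the threshold of an adjusted p under 0.05. The genes lie side by side on the minus strand of mouse chromosome 4 in GRCm38 (C1qa ENSMUSG00000036887.5, chr4:136895917-136898803; C1qb ENSMUSG00000036905.8, chr4:136880129-136886187; C1qc ENSMUSG00000036896.5, chr4:136889804-136893065). C1qa had 3725 and 4535 normalized CPM in WT 1 and WT 2 and 610 and 1848 in KO 1 and KO 2. The groups did not overlap, and KO 2 held 3.03 times the level of KO 1. The log2 fold change of KO over WT was -1.75 with an SE of 0.65 and a 95% interval from -3.22 to -0.28 (edgeR quasi-likelihood test, adjusted p = 0.288).

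C1qb, the most abundant chain, had 7527 and 9202 normalized CPM in WT 1 and WT 2 and 1776 and 4693 in KO 1 and KO 2. Here too the groups did not overlap and KO 2 lay between KO 1 and the WT-labeled libraries. Its log2 fold change was -1.37 with an SE of 0.65 (edgeR adjusted p = 0.392). C1qc had 4262 and 4849 against 759 and 2385 normalized CPM, the same order of libraries. Its log2 fold change was -1.53 with an SE of 0.66 (edgeR adjusted p = 0.349). In bulk samples, fewer cells of a type and less RNA per cell cannot be told apart.

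The receptors of the complement fragments followed the C1q order only in part. C3ar1 (ENSMUSG00000040552.8, chr6:122847138-122856161, minus strand) encodes the receptor for C3a. It had 1577 and 812 normalized CPM in WT 1 and WT 2 and 185 and 745 in KO 1 and KO 2. The groups did not overlap, but KO 2 and WT 2 were close, at 745 and 812. The log2 fold change was -1.36 with an SE of 0.70 and a 95% interval from -2.93 to 0.205 (edgeR adjusted p = 0.423). Without KO 1 it became -0.69.

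C5ar1 (ENSMUSG00000049130.6, chr7:16246743-16259540, minus strand) encodes the receptor for C5a, a strong attractant of myeloid cells. It had 864 and 709 normalized CPM in the WT-labeled libraries and 136 and 831 in KO 1 and KO 2. The groups overlapped, since KO 2 lay within the range of the WT-labeled libraries and 6.12-fold above KO 1. This was the widest ratio between KO 2 and KO 1 among the 7 genes tested. The log2 fold change was -0.70 with an SE of 0.74 (edgeR adjusted p = 0.709). Without KO 1 it became 0.073.

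Cfp (ENSMUSG00000001128.7, chrX:20925454-20931555, minus strand) encodes properdin. It had 1024 and 1204 normalized CPM in WT 1 and WT 2 and 311 and 1033 in KO 1 and KO 2, with KO 2 inside the range of the WT-labeled libraries. The log2 fold change was -0.73 with an SE of 0.62 and a 95% interval from -2.12 to 0.66 (edgeR adjusted p = 0.629), and without KO 1 it became -0.12. Since sex and group ran together, a part of sex in the level of this X-linked gene cannot be told apart from the labels.

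C3 (ENSMUSG00000024164.15, chr17:57203970-57228136, minus strand), the central component, showed another order. It had 434 and 440 normalized CPM in WT 1 and WT 2 and 518 and 310 in KO 1 and KO 2. KO 1, the lowest library for the other 6 genes tested, was the highest for C3, and the KO-labeled libraries lay on either side of the WT-labeled ones. The log2 fold change was -0.08 with an SE of 0.48 and a 95% interval from -1.15 to 0.99 (edgeR adjusted p = 0.964). Its sign depended on the scaling. With library totals alone it was 0.27, where the median of all genes tested moved from 0.05 to 0.38, and with factors from the macrophage list it was 0.92, where that median moved to 0.91. The fibroblast, melanoma, T cell, dendritic cell and monocyte marker lists were also each highest in KO 1, with 6651, 10380, 10915, 2263 and 11630 counts there, against 981, 6746, 6636, 1866 and 9962 in KO 2, and the shares of gene counts had the same order. Not every gene on the T cell, dendritic cell and monocyte lists had this order. Lck, Zbtb46 and Fn1 were higher in KO 2 than in KO 1, and Ly6c2 was highest in WT 1. The part of any of these lists in the C3 counts was not tested.

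Read together, 7 of the 8 genes were tested and 0 passed the threshold, where 0.574% of the 11837 genes tested did so. At an unadjusted p under 0.05 there were 2 of the 7, C1qa and C1qc, both lower in the KO-labeled libraries. Over all genes tested 13.7% had such a p, and 4.23% had such a p and were lower. DESeq2 called 1 of the 7, C1qa (adjusted p = 0.0422), and 3.51% of all genes tested (416 genes against 68 in edgeR). The groups did not overlap for 4 of the 7, against 47.9% of all genes tested. The median log2 fold change of the 7 was -1.36, that of all genes tested was 0.05 and that of the 13 macrophage markers was -0.61. The markers ranged from -2.04 to 1.94, with 9 fitted lower and 4 higher. Among these markers 3 were lower at an unadjusted p under 0.05 in edgeR, and the groups did not overlap for 6.

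The calls depended on 1 library. Without KO 2, which leaves KO 1 as the only KO library and assumes that it varies as the WT-labeled libraries do, all of the 7 genes but C3 passed the edgeR threshold. Their log2 fold changes were then -2.80 for C1qa, -2.27 for C1qb, -2.62 for C1qc, -2.72 for C3ar1, -2.57 for C5ar1 and -1.88 for Cfp, with adjusted p-values from 0.00467 to 0.0169. Without KO 2, 1249 genes passed in all, or 9.72% of the 12852 then tested, and 4.08% passed and were lower. Without KO 1, the log2 fold changes of C1qa, C1qb and C1qc were -1.17, -0.84 and -0.94 and none of the 7 passed.

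**Figure D2:**
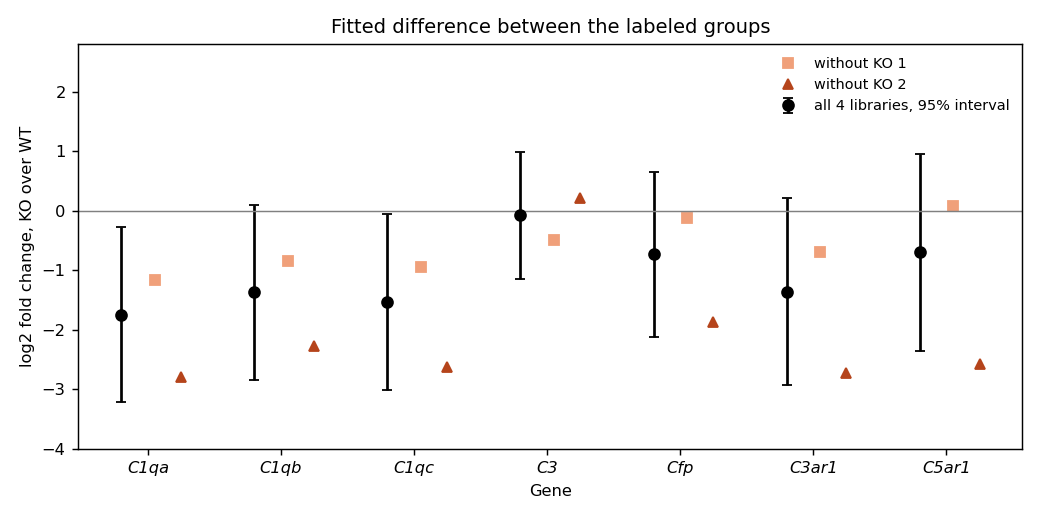
Log2 fold change of KO over WT (y axis) for the 7 complement genes tested (x axis), from all 4 libraries with the 95% interval (black), without KO 1 (squares) and without KO 2 (triangles). Without KO 2 the C1q genes, C3ar1 and C5ar1 lay between -2.27 and -2.80, and without KO 1 C5ar1 lay at 0.073 and Cfp at -0.12.

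The next question was whether the C1q chains moved as one. As a share of the summed C1q level per kb, C1qb made up 49.3%, 50.2%, 57.3% and 53.4% in WT 1, WT 2, KO 1 and KO 2. C1qa made up 25.5% and 25.9% in the WT-labeled libraries and 20.6% and 22.0% in the KO-labeled ones. For both chains the groups did not overlap, which in normalized CPM was so for 47.9% of all genes tested. C1qc made up 25.2%, 23.9%, 22.1% and 24.6%, with overlapping groups. The share of C1qa was 25.7% ± 0.266 (SD, n = 2) against 21.3% ± 1.01 (SD, n = 2). With 2 libraries a side, the smallest two-sided p of an exact permutation test is 0.333, so the shift was not tested.

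Because these shares are taken within a library, they do not depend on the scaling between libraries. C1qa had 0.495 and 0.493 counts per C1qb count in WT 1 and WT 2 and 0.343 and 0.394 in KO 1 and KO 2. For C1qc the ratios to C1qb were 0.566 and 0.527 against 0.427 and 0.508. Both ratios were lower in both KO-labeled libraries, and the WT-labeled libraries lay closer to each other than the KO-labeled libraries did.

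**Figure D3:**
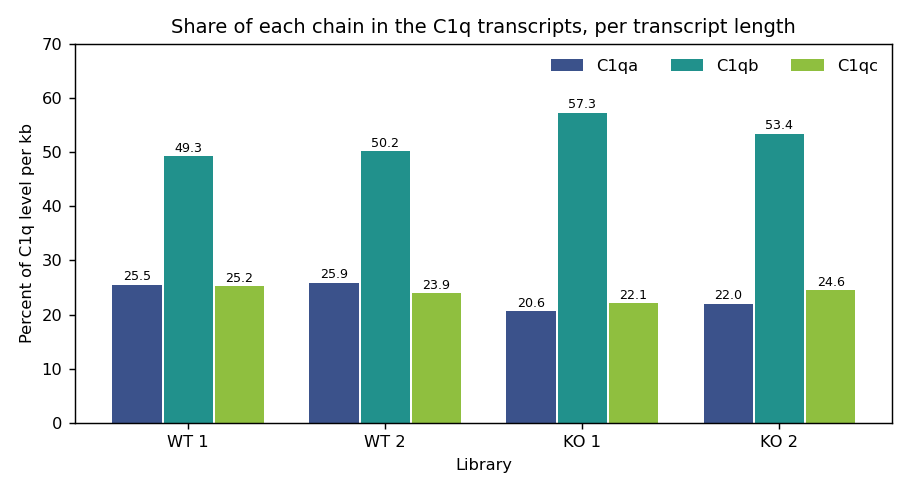
Percent of the summed C1q level per kb of transcript (y axis, from 0) held by C1qa, C1qb and C1qc in each library (x axis), 1 bar per chain. The C1qb bar stood at 49.3% and 50.2% in the WT-labeled libraries and at 57.3% and 53.4% in the KO-labeled ones, and the C1qa bar stood at 20.6% and 22.0% in the latter.

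The same genes were then set against macrophage markers of the same library. Per 1000 counts on the 13 markers, C1qb had 356 and 374 counts in WT 1 and WT 2 and 105 and 232 in KO 1 and KO 2. C1qa had 176, 184, 35.9 and 91.4, and C1qc had 201, 197, 44.7 and 118. On this basis the WT-labeled libraries nearly coincided for each C1q chain, and both KO-labeled libraries were lower.

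Most of the marker counts came from Lyz2, the lysozyme gene, and from Apoe, an apolipoprotein gene. In the order WT 1, WT 2, KO 1, KO 2, the counts of Lyz2 were 29370, 57521, 67802 and 58896. It was highest in KO 1. By counts, 9 of the 13 markers were lowest in KO 1, Apoe and Cd68 (11258, 7601, 2610 and 9055 counts) among them, and the other 4 (Lyz2, Mrc1, Cd14 and Cd163) were lowest in WT 1. The picture for KO 1 was different when Lyz2 and Apoe were left out. Per 1000 counts on the other 11 markers, C1qb had 909, 1438, 699 and 701 counts, so that KO 1 and KO 2 nearly coincided and the spread lay between the WT-labeled libraries. C1qa had 450, 709, 240.2 and 276, and C1qc had 514, 758, 299 and 357. The groups did not overlap for any chain on either basis. In normalized CPM the groups did not overlap for 47.9% of all genes tested, and no such share was worked out per marker count.

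For the other genes the choice of markers also mattered. Cfp had 48.4, 48.9, 18.3 and 51.1 counts per 1000 on the 13 markers and 124, 188, 122 and 154 on the 11, with overlapping groups on both. C3ar1 had 190.3 and 127 against 72.9 and 111 per 1000 on the 11 markers, without overlap, but overlapped on the 13. C5ar1 had 104, 111, 53.5 and 124 per 1000 on the 11 markers, and KO 2 was the highest library. C3 had 52.4, 68.8, 204 and 46.4, so that KO 1 stood far above the other libraries. With factors taken from the macrophage list in edgeR, the log2 fold changes of C1qa, C1qb and C1qc were -1.15, -0.74 and -0.95, and none passed (adjusted p = 0.313, 0.494 and 0.387).

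**Figure D4:**
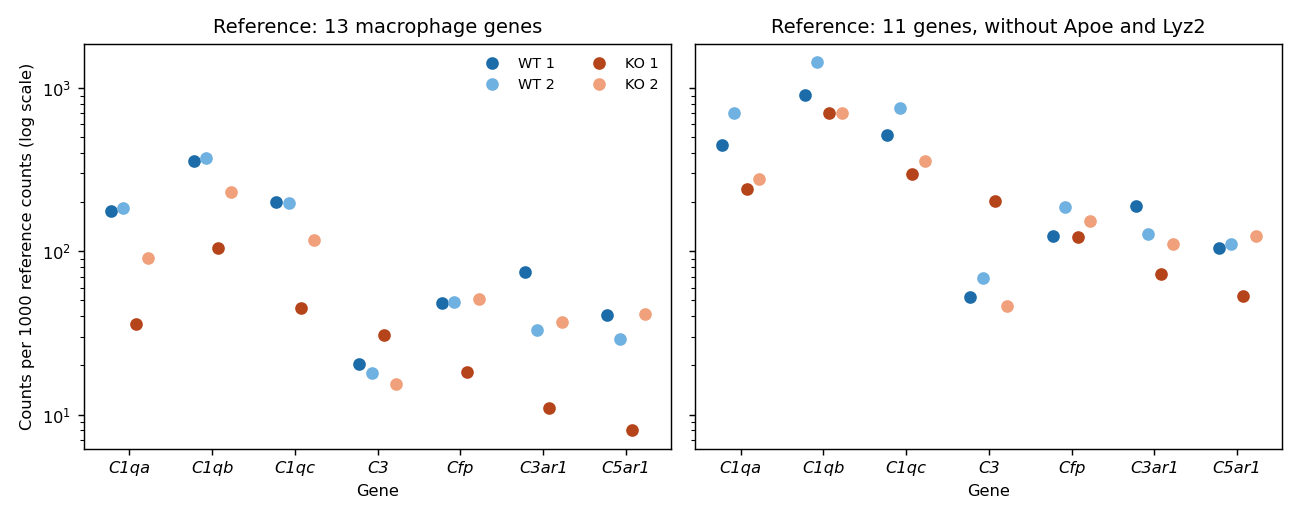
Counts of 7 complement genes (x axis) per 1000 counts on macrophage marker genes of the same library (y axis, log scale), with all 13 markers (left) and without Apoe and Lyz2 (right), 1 point per library. The C1q genes were lower in both KO-labeled libraries in both panels, and KO 1 and KO 2 nearly met for C1qb on the right, at 699 and 701.

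The rest of the pathway was read from a list of 48 further complement genes, of which 15 were tested. Of these, 0 passed the threshold, and at an unadjusted p under 0.05 there were 2 lower (C1rl and Cd93) and 1 higher (Serping1) in the KO-labeled libraries, where 13.7% of all genes tested had such a p and 4.23% had it and were lower. The groups did not overlap for 5 of the 15, against 47.9% of all genes tested. Their median log2 fold change was -0.22. A further 15 of the 48 had 0 counts in all 4 libraries, among them Mbl1, Mbl2, Cfd, Cfi, C8a and C8b. Many of these encode plasma proteins made by the liver, and Cfd is known as a product of fat cells.

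Among genes of the classical pathway, C4b, which encodes the component that C1 cleaves, had 135 and 197 normalized CPM against 87.1 and 140, with overlapping groups, and its reads cannot be fully told from those of its near copy C4a. C1ra, a protease of the C1 complex, had 17.9, 22.9, 30.7 and 10.2 normalized CPM. C1rl, a relative of that protease, had 20.6 and 29.6 normalized CPM against 9.47 and 8.16, and its log2 fold change of -1.51 did not reach the threshold (edgeR adjusted p = 0.266). C1s1, the partner protease in C1, had 0 and 0 counts in the WT-labeled libraries and 127 and 7 in KO 1 and KO 2. It was at least 15.4-fold higher against a limit of 3 counts per library labeled WT, and it did not reach the filter on low counts. This bound rested on KO 1, and from KO 2 alone it was 1.49-fold. In edgeR, C1s1 passed the threshold without that filter and when WT 1, WT 2 or KO 2 was left out. C1s1 shares 18.4% of its exonic bases with Gm16567 on the other strand.

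The lectin pathway was represented by Fcna, which encodes ficolin A. It had 35.0 and 41.2 normalized CPM in WT 1 and WT 2 and 4.35 and 109 in KO 1 and KO 2, so that KO 1 was the lowest and KO 2 the highest of the 4 libraries, 25.0-fold apart. The terminal components, which form the membrane pore, were near the floor, and 5 of the 7 had at most 10 counts in all libraries together. C6, the terminal gene that was tested, had 10, 8, 1 and 31 counts.

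Among receptors, Cd93, a receptor gene once linked to C1q uptake, had 460 and 345 normalized CPM in the WT-labeled libraries and 130 and 183 in the KO-labeled ones. Its groups did not overlap, and the log2 fold change was -1.36 with an SE of 0.46 (edgeR adjusted p = 0.252). Itgam, Itgax and Itgb2, which encode the chains of complement receptors 3 and 4, had log2 fold changes of -0.75, -0.22 and -0.22 (edgeR adjusted p = 0.476, 0.856 and 0.884). Itgam shares 68.7% of its exonic bases with Gm49368 on the same strand, so its level is uncertain. C1qbp, a mitochondrial protein gene named for binding C1q, had 103, 117, 154 and 111 normalized CPM. C5ar2 had 35, 6, 13 and 21 counts. Vsig4, a complement receptor gene of resident macrophages, had 0, 2, 0 and 0 counts.

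Of the regulators that hold complement in check, Serping1, which encodes the C1 inhibitor, had 0 and 0 counts in the WT-labeled libraries and 485 and 40 in KO 1 and KO 2. It was at least 60.4-fold higher in the KO-labeled libraries against a limit of 3 counts per library labeled WT, and it did not pass the threshold (edgeR adjusted p = 0.0614). It did pass in DESeq2 and, in edgeR, with the replicate block, with the crossed block, without the filter on low counts, with library totals alone, and without WT 1, WT 2 or KO 2. It did not pass with RLE, upper-quartile or macrophage-list factors or without KO 1. From KO 2 alone the bound was 8.49-fold. KO 1 was above KO 2 for Serping1, C1s1 and C3. The summed fibroblast, melanoma, T cell and dendritic cell marker lists had that order as well. Not every gene on the T cell and dendritic cell lists did. Which cells supplied these transcripts was not tested. Cr1l, which encodes the rodent regulator Crry, had 67.6, 93.9, 77.0 and 58.7 normalized CPM.

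**Figure D5:**
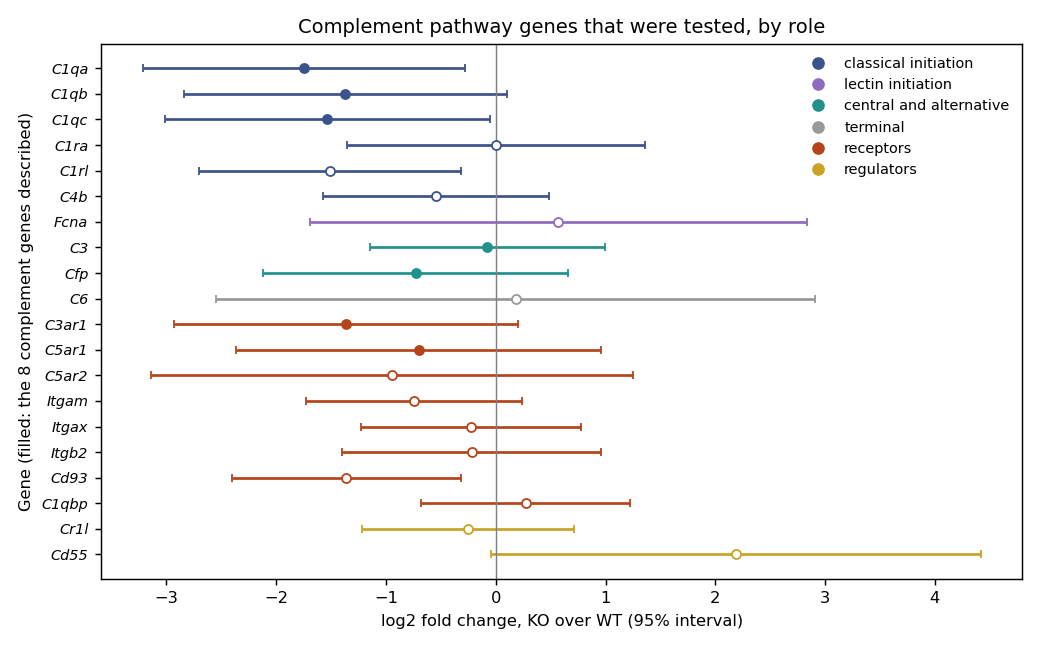
Log2 fold change of KO over WT with its 95% interval (x axis) for complement pathway genes that were tested (y axis), colored by role, with filled points for the genes among the 8 described first. Serping1 is left out because both WT-labeled libraries had 0 counts, and 1 other gene is not shown. The C1q genes, C1rl and Cd93 lay between -1.36 and -1.75, and most intervals crossed 0.

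Genes of like pattern were listed by the distance between log2 CPM profiles, each centered on its mean over the 4 libraries, among 6218 genes with a mean of at least 20 normalized CPM and a count in every library. These are descriptions over 4 points. Nearest to the mean profile of the C1q chains were Tor4a, Prxl2b, Scarf1, Upp1, Cd72, Rab11fip5, Tpcn2, Blvrb, Pilrb1 and Gm36551, at distances from 0.187 to 0.411. With a minimum of 5 normalized CPM, 6 of these 10 genes were still among the nearest 10, and 1 of the 3 nearest to C3 was. Scarf1, which encodes a scavenger receptor, had 71.5, 86.2, 10.8 and 41.5 normalized CPM in WT 1, WT 2, KO 1 and KO 2. Nearest to Cfp were Pltp, Stard3 and Man2b2, at distances from 0.122 to 0.205. Pltp, the gene of the phospholipid transfer protein, had 1078, 1280, 313 and 987 normalized CPM. Nearest to C3ar1 were Metrnl, Naa80 and Slc35f6, and nearest to C5ar1 were Itga5, Pf4 and Hlx. The integrin gene Itga5 had 260, 202, 36.7 and 225 normalized CPM. C3 lay nearest to Spcs1, Vta1 and Kmt2d, at distances from 0.0709 to 0.0867.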

How the data were processed

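Polyadenylated RNA of 4 libraries was sequenced. The authors deposited raw read counts per gene symbol, 1 table per library, and the submitters' processing notes name HISAT2 2.1.0, HTSeq 0.11.0 and mm10. The annotation and strand setting are not given in the sources used here. Counter summary lines were left out, and 20.5% to 28.8% of the reads in the tables were on genes. Libraries were grouped by title. Genes passing filterByExpr (minimum count 10, minimum total 15) were fitted in edgeR 4.0.16 (R 4.3.3) with TMM factors and the quasi-likelihood test, and p-values were adjusted by Benjamini-Hochberg over all 11837 genes (threshold 0.05). Normalized CPM used TMM-scaled totals, and 3 counts, taken as the limit of a count of 0, equaled 0.521 to 0.897 normalized CPM. The fit was tested on simulated data. Positions, overlaps and transcript lengths came from GENCODE M21, which held 96.3% of the symbols, and promoters from RefSeq. Alternatives were DESeq2 1.42.0, other factors, no filter, a replicate block, other marker references and lengths, and leaving out each library. The complement genes, the gene lists and the rule for genes of like pattern (the 10 nearest to the C1q chains and the 3 nearest to each other gene) were chosen with earlier results of these data known. For 1 gene of the complement list the values are not reported here.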

Additional observations from a re-analysis of the deposited data

How the results depend on the processing

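Over all genes, 68 passed the edgeR threshold, against 136 with library totals only, 22 with macrophage-list factors, 583 without the filter on low counts, 416 in DESeq2 and 113 to 1249 when 1 library was left out. Replicate numbers did not pair the libraries (correlation of same-numbered deviations -0.18 over 11837 genes). With a replicate block 215 genes passed, and with a crossed replicate block, chosen after seeing the data, 647. Of the 56 complement genes 0 passed, against 1 with library totals only, 2 without the filter, 1 with the replicate block, 1 with the crossed block, 2 in DESeq2 and 0 to 10 when 1 library was left out, with 10 without KO 2. Of these 56 genes, 22 were tested in the edgeR fit of all 4 libraries with TMM factors, and the others could not pass there. Of all 11837 genes tested, 0.574% passed in that fit and 3.51% in DESeq2. The log2 fold change of C1qa in DESeq2 was -1.76. Leaving out 1 library gave log2 fold changes from -2.80 to -1.17 for C1qa, -2.27 to -0.84 for C1qb, -2.62 to -0.94 for C1qc, -2.72 to -0.69 for C3ar1, -1.88 to -0.12 for Cfp, -2.57 to 0.073 for C5ar1 and -0.50 to 0.21 for C3. C5ar1 turned to 0.073 without KO 1. C3 turned to 0.27 with library totals only, 0.92 with macrophage-list factors and 0.21 without KO 2. The cause was not tested. The median over the complement genes tested was -0.40 (0.05 over all genes), 0.33 with macrophage-list factors (0.91 over all genes) and -1.13 without KO 2 (0.037 over all genes).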

Other observations

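Ratios between complement genes within a library do not depend on scaling. Cfp had 0.136 and 0.131 counts per C1qb count in WT 1 and WT 2 and 0.175 and 0.220 in KO 1 and KO 2, so it was higher relative to C1qb in both KO-labeled libraries. C3 had 0.0577 and 0.0478 counts per C1qb count in the WT-labeled libraries and 0.292 and 0.0661 in KO 1 and KO 2. The groups did not overlap for either ratio, and no test was run on them. C3ar1 had 0.209, 0.0882, 0.104 and 0.159 counts per C1qb count in WT 1, WT 2, KO 1 and KO 2. C5ar1 had 0.115, 0.0771, 0.0764 and 0.177, and the groups overlapped for both genes. C5ar1 had 0.548, 0.874, 0.733 and 1.12 counts per C3ar1 count in WT 1, WT 2, KO 1 and KO 2, with overlapping groups.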
